A study of Rattus norvegicus with 4 samples.

Results

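The genes described here are 34 markers of tissues that adjoin visceral fat or lie within it, out of 10411 genes that had a probe set with 1 gene symbol on the array. They comprise 14 genes of the exocrine pancreas, 7 of epithelium, 3 of mesothelium, 2 of gut, 1 of epididymis and 7 of lymph node. Each gene's probe set was chosen by its signal, as the one with the highest mean over the 4 arrays, dim ones included, and all 34 genes were found. The list was drawn up with earlier results of these data known, so how its genes differ from array to array is a description and was not tested. Visceral fat was taken from male Wistar rats at 130 days of age, and its RNA was hybridised as 2 samples labelled control and 2 labelled obese. The labels give no genotype, diet or treatment, no cause of the obesity and no name of the fat depot, and beyond 1 title, that of obese replicate 1, which names a rat, they do not say how many animals went into a sample. Every p-value here rests on the spread between arrays of a group, which may be technical only.

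Visceral fat of the rat is in contact with several other tissues. Acinar cells of the pancreas, which secrete digestive enzymes, lie in the fat of the mesentery and around the stomach and spleen; lymph nodes sit inside mesenteric fat; a sheet of mesothelium covers the depots; and the fat pads of the male genital tract adjoin the epididymis. Acinar enzymes and the keratins of epithelial cells are textbook products of their tissues and are not made in quantity by adipocytes. In whole tissue, fewer cells of a type and less RNA per cell cannot be told apart.

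Signals are in the arbitrary units of the deposited table, and values under a floor of 20.8, the 20th percentile of all signals, are treated as dim and have no order among themselves. Of 15866 probe sets, 12929 lay above the floor on at least 2 arrays and were tested. In limma, 0 of them passed an adjusted p of 0.05 for obese against control (background 0%), while 1073 had an unadjusted p under 0.05; the same test without moderation also passed 0. The adipocyte genes that define the labelled tissue were above the floor on every array. Fabp4, the fatty acid binding protein of adipocytes, had signals of 2853 and 3134 on control replicates 1 and 2 and of 3092 and 3680 on obese replicates 1 and 2. Cfd (adipsin) ranged from 3346 to 3534. The widest ranges were those of Scd, Lep and Slc2a4. From control replicate 2, their lowest array, to obese replicate 2, their highest, Scd ran from 463.4 to 2828. Lep ran from 330.2 to 1256 between the same arrays, and Slc2a4 from 75.0 to 141.1. All 11 measured adipocyte markers had their highest signal on obese replicate 2, by a factor of at least 2 for leptin (Lep) alone. That array also gave the lowest signal of the 4 for 35.5% of all probe sets above the floor on any array. The share of all probe sets highest on each array was not counted, so counts of genes highest on an array have no background here.

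Exocrine pancreas genes stood out on obese replicate 1. Pancreatic triglyceride lipase, Pnlip (probe set 1368554_at), had signals of 29 and 39.9 on control replicates 1 and 2, 496.8 on obese replicate 1 and 44.7 on obese replicate 2. The trypsinogen gene Prss1 (1369030_at) gave 26.5 and 16.4 on the controls, 361.5 on obese replicate 1 and 27.4 on obese replicate 2. Amylase, Amy2a3 (1369503_at), was under the floor on the other 3 arrays, at 1.0, 1.7 and 3.3, and reached 531.8 on obese replicate 1. In each of these genes 1 array of the 4 was high, and obese replicate 2 lay with the controls.

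The same was seen for most of the other enzymes. Elastase 2A, Cela2a, had a signal of 484.7 on obese replicate 1 and of 9.5 to 20.1 elsewhere. Chymotrypsin C, Ctrc, which activates and degrades other zymogens, gave 426.5 there and 22.5 to 45.7 elsewhere. Carboxypeptidase B1, Cpb1, gave 255.9 there, 34.5 and 31.3 on the controls and 41.3 on obese replicate 2. The lipase-related gene Pnliprp1 (200.6), colipase Clps (169.7), the bile salt-dependent lipase Cel (168.8) and chymotrypsinogen Ctrb1 (118.9) were above the floor on obese replicate 1 and under it on the other 3 arrays. Against the highest of the other arrays, with dim values set to the floor, obese replicate 1 was 13.2-fold higher for Prss1, 11.1-fold for Pnlip, 9.33-fold for Ctrc and 6.20-fold for Cpb1. The signal was at least 25.6-fold higher for Amy2a3, 23.3-fold for Cela2a, 9.64-fold for Pnliprp1, 8.16-fold for Clps, 8.12-fold for Cel and 5.72-fold for Ctrb1.

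Rnase1l2, a member of the pancreatic ribonuclease family, had the largest signal on obese replicate 2 relative to the controls among the pancreatic genes. Its signals were 9.9 and 12.5 on the controls, both under the floor, 339.0 on obese replicate 1 and 71.5 on obese replicate 2. With obese replicate 1 left out, its log2 difference from the floor was still 1.78, against at most 0.39 for the other 13 pancreatic genes.

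The remaining 3 pancreatic genes did not follow that array. Carboxypeptidase A1, Cpa1 (1369657_at), was highest on control replicate 2, with signals of 148.1 and 622.5 on the controls and 197.0 and 73.4 on obese replicates 1 and 2. Elastase 1, Cela1, gave 80.2 and 207.8 on the controls and 166.2 and 21.4 on the obese arrays. Both were above the floor on all 4 arrays, were highest on control replicate 2 and were lowest on obese replicate 2. The trypsinogen gene Prss2 was under the floor on every array, at 0.7 to 1.8. Trypsinogens and amylases form families of near-identical genes, so which copy a probe set detects is uncertain. In all, 11 of the 14 pancreatic genes were at least 2-fold above the other 3 arrays on obese replicate 1, where 0.611% of all 15866 probe sets were, and 1, Cpa1, on control replicate 2, where 0.164% were.

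**Figure D1:**
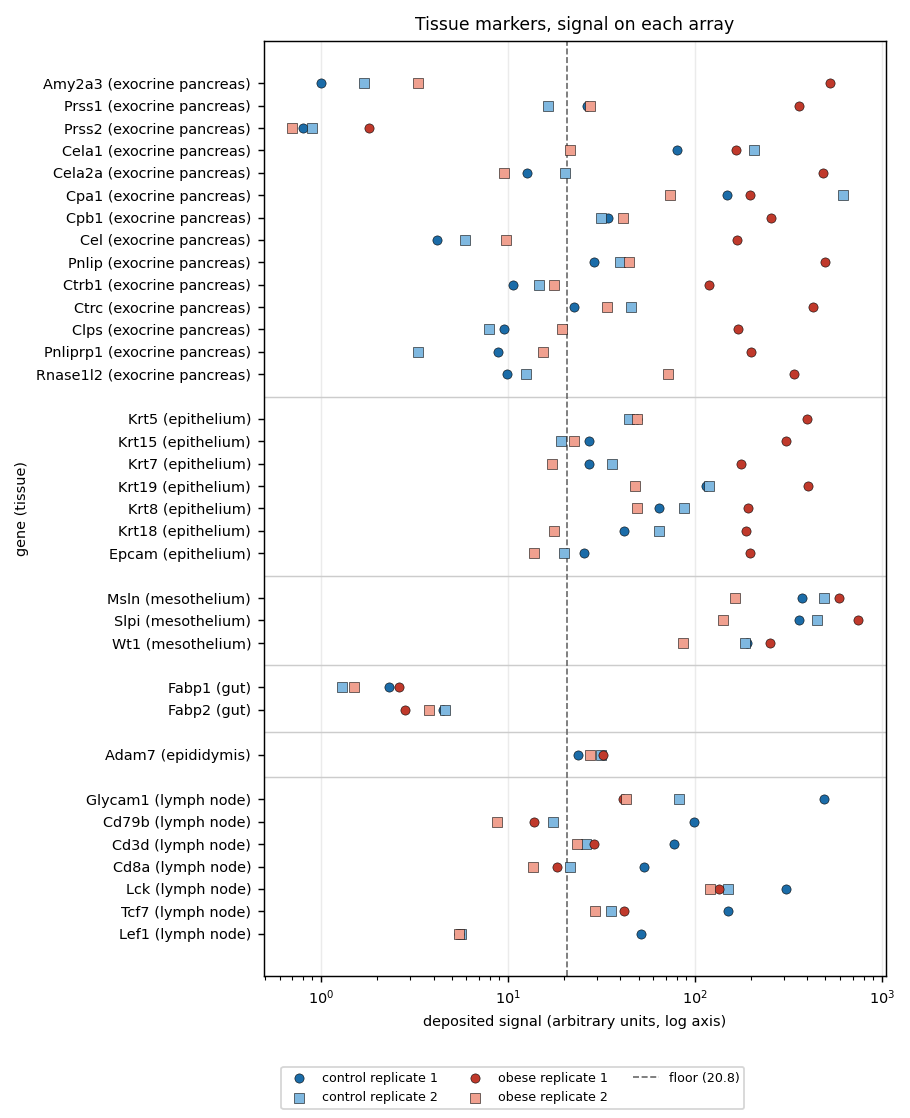
Deposited signal (log axis) of the 34 marker genes on each of the 4 arrays, 1 point per array and gene; the dashed line is the floor of 20.8. Pancreatic and epithelial genes are displaced to the right on obese replicate 1 and lymph node genes on control replicate 1, while Cpa1 is highest on control replicate 2.

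Promoter windows show what letters the pancreatic genes share near their start sites. The acinar transcription factor complex PTF1 is known to bind an E-box close to a second, TC-rich element, so the letters CACCTG and TTTCCC were searched on both strands of the RefSeq windows of assembly GRCr8, from 250 bases before to 50 after each start. Of the 14 pancreatic genes, 12 matched a window. CACCTG was present in 8 of these, 66.7%, against 20.1% of the 27457 genes with a window. TTTCCC was present in 7, 58.3%, against 26.7%. Both in the order CACCTG then TTTCCC, at most 30 bases apart on 1 strand, occurred in 3, Prss2, Cela1 and Ctrb1, against 0.361% of all genes. The motifs can share no more than an end base. A pair of genes high on obese replicate 1, Ctrb1 and Prss1, and the pair highest on control replicate 2, Cela1 and Cpa1, are shown to set both patterns side by side; capitals mark the searched letters on either strand.
Ctrb1, chr19:56566929-56567228, minus strand: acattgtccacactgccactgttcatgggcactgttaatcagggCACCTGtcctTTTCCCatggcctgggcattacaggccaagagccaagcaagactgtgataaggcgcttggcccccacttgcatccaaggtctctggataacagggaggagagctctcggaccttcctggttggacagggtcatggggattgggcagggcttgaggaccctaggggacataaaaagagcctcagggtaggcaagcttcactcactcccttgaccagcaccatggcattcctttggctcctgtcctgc
Prss1, chr4:71330999-71331298, plus strand: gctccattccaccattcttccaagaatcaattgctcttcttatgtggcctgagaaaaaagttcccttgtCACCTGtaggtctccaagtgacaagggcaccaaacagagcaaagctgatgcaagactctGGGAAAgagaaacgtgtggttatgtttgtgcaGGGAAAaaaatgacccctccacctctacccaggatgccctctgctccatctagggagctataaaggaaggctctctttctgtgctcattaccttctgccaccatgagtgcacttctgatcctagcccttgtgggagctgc
Cela1, chr7:133665012-133665311, minus strand: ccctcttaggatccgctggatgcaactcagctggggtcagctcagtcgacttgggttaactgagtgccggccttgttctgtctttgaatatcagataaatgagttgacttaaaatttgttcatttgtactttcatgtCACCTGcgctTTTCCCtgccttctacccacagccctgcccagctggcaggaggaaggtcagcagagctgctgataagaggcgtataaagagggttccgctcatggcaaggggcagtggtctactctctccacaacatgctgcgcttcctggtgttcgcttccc
Cpa1, chr4:60224551-60224850, plus strand: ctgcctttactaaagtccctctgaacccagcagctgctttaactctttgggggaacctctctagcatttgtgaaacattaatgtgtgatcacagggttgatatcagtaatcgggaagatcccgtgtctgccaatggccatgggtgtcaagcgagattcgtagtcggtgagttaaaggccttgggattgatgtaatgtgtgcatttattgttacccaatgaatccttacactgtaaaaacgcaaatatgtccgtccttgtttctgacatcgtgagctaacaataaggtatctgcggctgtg
Ctrb1 and Cela1 carry the pair of motifs although their signals were highest on different arrays. Cpa1 has neither motif in this window, which is placed by 1 annotated start. Whether acinar cells use that start was not tested. CACCTG was also present in 3 of the 4 epithelial genes with a window (75%) and in 3 of the 6 lymph node genes (50%), so its share is not particular to the pancreatic set; the pair of motifs was in none of these. A match of letters is a description and does not show binding.

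Pancreatic genes outside the 34 were read from a further list of 30, of which 17 had a probe set with 1 symbol. Of these, 6 were at least 2-fold above the other arrays on obese replicate 1 (0.611% of all probe sets). Highest there were 9, and 6 were under the floor on all arrays and have no order. Prss3b, a further trypsinogen gene, gave 27.8 and 12.2 on the controls, 360.6 on obese replicate 1 and 35.4 on obese replicate 2. Chymotrypsin-like Ctrl gave 169.6 on obese replicate 1 and 10.3 to 13.7 elsewhere. The zymogen granule proteins Sycn and Zg16 gave 211.7 and 122.0 on that array, against at most 65.4 and 33.3 on the others. Genes of the endocrine islets did not share the displacement: 8 of 13 were under the floor on every array, and none was 2-fold above the other 3 on any array. The insulin gene Ins1 had signals of 72.6 and 82.7 on the controls and 72.5 and 68.7 on the obese arrays, and Ppy, pancreatic polypeptide, of 18.9 to 33.2. Neurod1, an islet transcription factor, had its highest signal, 38.2, on control replicate 1.

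Epithelial genes were also high on obese replicate 1, all 7 of them at least 2-fold above the other 3 arrays (0.611% of all probe sets). Keratin 5, Krt5 (1370863_at), the type II keratin of basal cells in stratified epithelium, had signals of 49 and 44.2 on the controls, 396.8 on obese replicate 1 and 48.9 on obese replicate 2. Keratin 15, Krt15, another basal keratin, gave 27.2, 19.3, 308.9 and 22.6 in the same order. The adhesion molecule Epcam gave 25.4 and 20 on the controls, 198.2 on obese replicate 1 and 13.8 on obese replicate 2. Obese replicate 1 was 8.10-fold, 11.4-fold and 7.80-fold above the next array for these 3 genes, and obese replicate 2 again lay with the controls or below them.

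Keratins of simple epithelium, which mesothelium makes as well, exceeded the next array by less, from 2.19-fold for Krt8 to 4.88-fold for Krt7. They were above the floor on both control arrays, as Krt5 was. From the highest to the lowest array Krt7, Krt18 and Krt19 spanned 8.50-fold, 9.01-fold and 8.48-fold, near the 8.98-fold of Krt5, and Krt8 spanned 3.91-fold. Krt7 had signals of 27.2 and 36.2 on the controls, 176.8 on obese replicate 1 and 17.3 on obese replicate 2. Krt19 gave 114.7 and 118.5 on the controls, 405.4 on obese replicate 1 and 47.8 on obese replicate 2. For Krt8 the signals were 64.4 and 87.8 on the controls and 192.7 and 49.3 on the obese arrays, and for Krt18, its partner in keratin filaments, 41.8 and 64.7 against 187.5 and 17.7. In these 4 genes the obese arrays were the highest and the lowest of the 4, with the controls between them.

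Of 31 further epithelial genes, 22 had a probe set. At least 2-fold above the other arrays on obese replicate 1 were 4 of these (0.611% of all probe sets), while 11 were highest there. E-cadherin, Cdh1, gave 74.0 on obese replicate 1 and 2.1 to 2.4 elsewhere. The tight junction gene Cldn4 gave 70.3 there and 2.5 to 13.7 elsewhere. Desmoplakin, Dsp, a desmosome protein, ran from 74.8 on obese replicate 2 to 220.7 on obese replicate 1, with 142.2 and 176.2 on the controls. The basal keratin Krt14 gave 41.3 and 61.7 on the controls, 64.1 on obese replicate 1 and 5.5 on obese replicate 2. Plakoglobin, Jup, which many cell types express, was level at 248.3 to 282.3.

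Mesothelial genes were present on every array and differed chiefly through obese replicate 2. Mesothelin, Msln (1368441_at), the surface protein that names the tissue, had signals of 375.1 and 491.8 on the controls, 590.7 on obese replicate 1 and 164.7 on obese replicate 2. The protease inhibitor Slpi, which epithelia and leukocytes also make, gave 361.3 and 452.4 on the controls and 746.5 and 142.1 on the obese arrays. Wt1, a transcription factor of mesothelium, gave 191.1 and 186.6 on the controls and 252.7 and 86.7 on the obese arrays, and its second probe set was lowest on obese replicate 2 too, at 34.5. By the probe sets chosen, all 3 genes were highest on obese replicate 1, by at most 1.65-fold over the next array. All 3 were lowest on obese replicate 2, as were 35.5% of all probe sets above the floor on any array. With obese replicate 1 left out, the 3 log2 differences were -1.38 for Msln, -1.51 for Slpi and -1.12 for Wt1; with obese replicate 2 left out they turned to 0.46, 0.88 and 0.42.

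The further mesothelial list went the same way, with 8 of 10 measured genes highest on obese replicate 1. The lowest array was obese replicate 2 for 8 of the 10, and for 35.5% of all probe sets above the floor on any array. Nkain4 gave 34.7 and 57.8 on the controls, 133.8 on obese replicate 1 and 6.4 on obese replicate 2. The membrane glycoprotein Gpm6a gave 106.9, 94.6, 188.9 and 62.2 in that order. The matrix protein genes Efemp1 and Igfbp6, which fibroblasts also express, ran from 301.3 to 774.2 and from 884.8 to 1226. Efemp1 was highest on obese replicate 1 and did not have its lowest value on obese replicate 2, which gave 434.5.

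Lymph node genes stood out on another array, control replicate 1, where all 7 were at least 2-fold above the other 3 arrays (0.176% of all probe sets). Glycam1 (1368337_at), an L-selectin ligand of the high endothelial venules through which lymphocytes enter lymph nodes, had a signal of 493.9 on control replicate 1, 82.2 on control replicate 2, and 41.2 and 43.1 on the obese arrays. Cd79b, a chain of the B cell receptor, gave 99.3 on control replicate 1 and was under the floor on the others, at 17.5, 13.8 and 8.7. Control replicate 1 was 6.01-fold above the next array for Glycam1 and at least 4.77-fold above for Cd79b. Control replicate 2 lay with the obese arrays for Cd79b and between them and control replicate 1 for Glycam1.

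The T cell genes of the set behaved alike. Cd3d, a chain of the T cell receptor complex, gave 77.7 and 26.2 on the controls and 28.8 and 23.3 on the obese arrays. The T cell coreceptor gene Cd8a gave 53.2 on control replicate 1 and 13.7 to 21.5 elsewhere. The T cell kinase Lck gave 307.7 and 150.9 on the controls and 134.0 and 120.5 on the obese arrays. The transcription factors of naive T cells gave 151.2 on control replicate 1 and 29.3 to 41.8 elsewhere for Tcf7, and 51.8 against 5.5 or 5.6 for Lef1. Thus control replicate 1 was the high array in each gene, and for Cd3d and Tcf7 control replicate 2 fell inside the range of the obese pair.

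Of 41 further lymph node genes, 17 had a probe set. Of these, 11 were highest on control replicate 1 and 11 lowest on obese replicate 2 (35.5% of all probe sets above the floor on any array). Only the T cell receptor gene Cd3g was 2-fold above the other arrays, at 150.8 on control replicate 1 (0.176% of all probe sets) against 65.3 to 74.3. Cd4, which rat macrophages carry as well as T cells, had another pattern, with signals of 569.1 and 540.8 on the controls and 303.2 and 270.1 on the obese arrays. The leukocyte tetraspanin Cd37 gave 221.7 and 227.7 on the controls and 119.8 and 79.6 on the obese arrays. In both genes the controls were close to each other and separate from the obese pair. Coro1a, an actin-binding protein of leukocytes, gave 285.4, 209.9, 143.5 and 106.9, and the B cell chemokine Cxcl13 375.6, 229.5, 384.4 and 130.7, the latter with overlapping groups.

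Among the listed gut and epididymis genes, few stood out on any array. The lists hold no smooth muscle genes, and 14 of 27 further epididymal genes were measured, so absence of either organ was not shown. The intestinal fatty acid binding proteins Fabp1, which liver also makes, and Fabp2 were under the floor on all 4 arrays, at 1.3 to 2.6 and 2.8 to 4.6. None of 22 further gut genes was 2-fold above the other 3 on any array. Anpep, an aminopeptidase also found outside gut, ranged from 249.0 to 460.0, Dpp4 from 109.3 to 190.5, Alpi from 20 to 38.1 and the mucin Muc2 from 20.3 to 42. Adam7, a surface protein of epididymal epithelium, was near the floor, with signals of 23.7 and 31.5 on the controls and 32.4 and 27.5 on the obese arrays. The epididymal list of 14 measured genes held 1 that was 2-fold above the others, the estrogen sulfotransferase Sult1e1. It gave 87.6 on obese replicate 1 (0.611% of all probe sets were 2-fold above there) and 16.8 to 29.4 elsewhere. Of its other named genes, Lcn2 ranged from 94.8 to 159.5, Defb22 from 51.6 to 68.3, Cst12 from 17.4 to 37.5 and Cd52, which lymphocytes share, from 18.7 to 60.9. Testis genes were under the floor on all arrays for 10 of 13, and the brightest, Acrv1, Odf1 and Insl3, did not exceed 33.0.

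**Figure D2:**
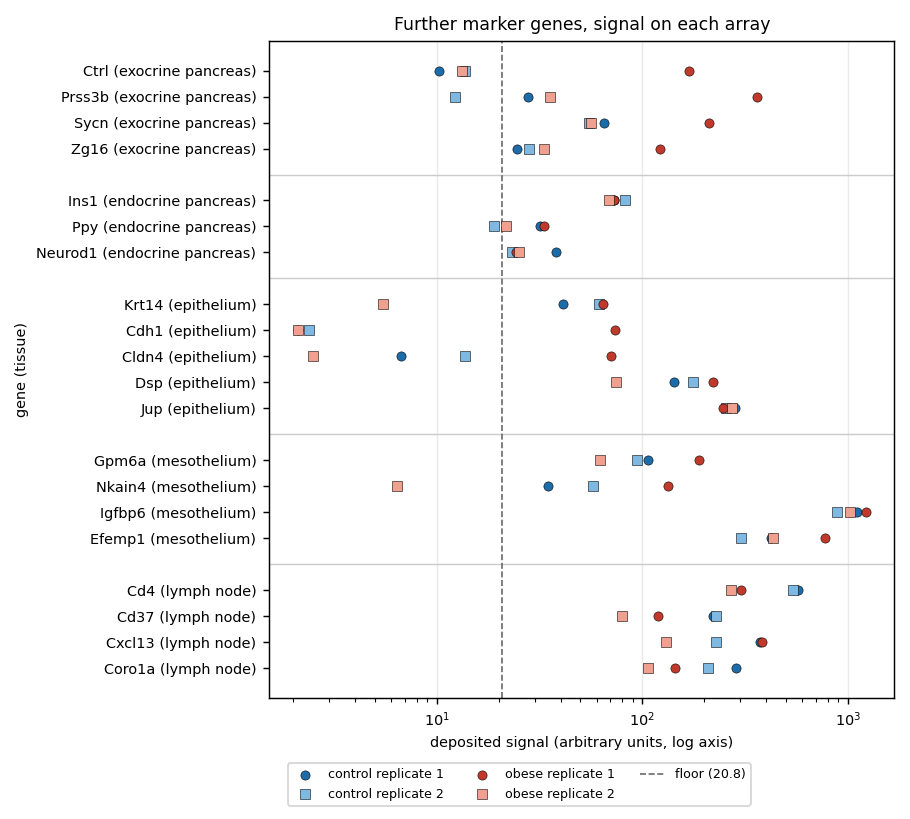
Deposited signal (log axis) of the further pancreatic, islet, epithelial, mesothelial and lymph node genes named by the rule, 1 point per array and gene; the dashed line is the floor of 20.8. Prss3b, Ctrl, Cdh1 and Cldn4 are high on obese replicate 1, islet genes are level, and Cd4 and Cd37 separate both controls from both obese arrays.

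As a share of all signal on an array, the 34 genes took 0.103% and 0.101% on control replicates 1 and 2, 0.269% on obese replicate 1 and 0.0433% on obese replicate 2. The pancreatic genes took 0.0139% and 0.0356% on the controls, 0.137% on obese replicate 1 and 0.0132% on obese replicate 2. The control replicate 2 value was carried by Cpa1 and Cela1: the other 12 pancreatic genes took 0.00593% and 0.00691% on the controls, 0.124% on obese replicate 1 and 0.00999% on obese replicate 2. Epithelial genes took 0.0652% on obese replicate 1 and 0.00737% to 0.0135% elsewhere. Mesothelial genes ran from 0.0133% on obese replicate 2 to 0.0556% on obese replicate 1, and lymph node genes from 0.00828% on obese replicate 2 to 0.0431% on control replicate 1. So obese replicate 1 held the largest share for pancreas, epithelium and mesothelium, control replicate 1 for lymph node, and obese replicate 2 the smallest for epithelium, mesothelium and lymph node. For pancreas, obese replicate 2 was the smallest with Cpa1 counted, and control replicate 1 without it (0.00872% against 0.0107%). These are shares of array signal; no array of the pure tissues was used here to turn them into amounts of tissue.

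**Figure D3:**
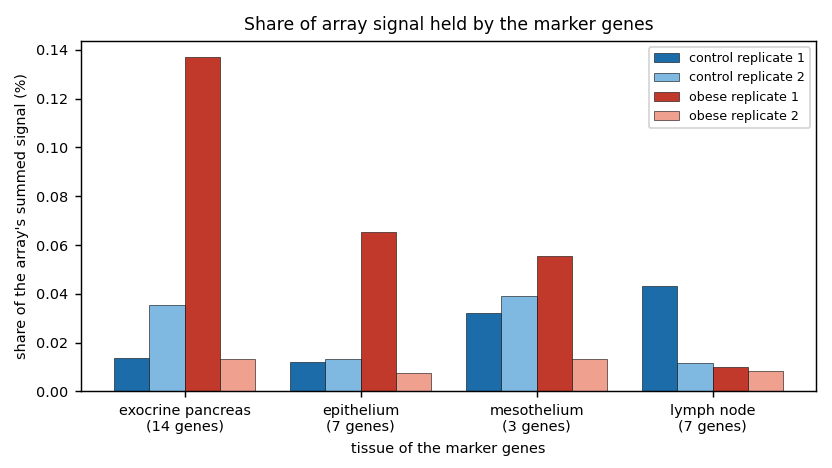
Share of each array's summed signal, in percent, held by the marker genes of 4 tissues, 1 bar per array. The pancreatic bar of obese replicate 1 stands at 0.137%, and the lymph node bar of control replicate 1 at 0.0431% is the tallest of its tissue.

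Ranked over the tested probe sets without regard to the lists, which leaves out genes above the floor on 1 array alone such as Amy2a3, Cela2a, Pnliprp1 and Cd79b, the 10 genes that most exceeded the other 3 arrays on obese replicate 1 were Prss1, Krt15, Pnlip, Prss3b, Ctrc, Sprr1a, Krt5, Epcam, Actg2 and Cpb1, of which 7 are among the 34. The others included Sprr1a, a protein of the cornified envelope of squamous cells, at 388.6 against 24.4 to 45.3, and Actg2, the enteric smooth muscle actin, at 675.1 against 77.4 to 91.5. On control replicate 1 the 10 were Glycam1, Tcf7, Ccdc88c, Cd3d, Evl, Nfasc, Cd8a, Snap25, Septin1 and Crp, with 4 of the 34. Cpa1 led on control replicate 2, 3.16-fold above the next array, followed by Hmox1, Hdgfl2, Cks2, Alox15, Cdkn3, Melk, Bcl2a1, Spp1 and Mki67. On obese replicate 2, where 0 of the 34 were 2-fold above the other arrays (0.208% of all probe sets), they were Grifin, Pde8a, Angptl8, Mbp, Entrep1, Apod, Cryab, C2h1orf52, Fabp3 and Clec3b. Of all probe sets at least 2-fold above the other arrays, the marker genes made up 18 of 97 on obese replicate 1, 7 of 28 on control replicate 1 and 1 of 26 on control replicate 2. Because the 34 genes were chosen with earlier results of these data known, these counts and those of the rankings are a description only.

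The remaining question was how far this signal entered the comparison of obese with control tissue. Of the 34 genes, 23 were above the floor on at least 2 arrays and so were tested; 8 were above it on 1 array alone, and 3 (Prss2, Fabp1 and Fabp2) on none. The filter favours genes that are bright in either group, so the tested genes do not stand for all 34. In limma, 0 of the 23 passed over all 12929 probe sets. An unadjusted p under 0.05 was found for 2 of the 23, Rnase1l2 and Glycam1. It was found for 1073 of the 12929, a similar share. Rnase1l2 had a log2 difference of 2.90 ± 0.68 (SE, n = 2 per group, limma adjusted p = 0.467). Both its controls lay under the floor and were set to it, so the size, the SE and the p all depend on the floor. The gene was tested only because both obese arrays were above the floor. Glycam1 differed by -2.26 ± 0.78 (limma adjusted p = 0.555), and by -0.96 without control replicate 1 and -3.55 without control replicate 2. Pnlip differed by 2.13 ± 1.04 (limma adjusted p = 0.654), Krt5 by 1.58 ± 0.90 (0.694), and Msln by -0.46 ± 0.56 (0.868).

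A comparison by size alone took in more of these genes. Group means differed at least 2-fold for 65 tested probe sets higher in obese tissue (0.503%) and for 100 lower (0.773%). Among the 65 were 8 of the 34 genes, 12.3% of those probe sets, namely Cpb1, Ctrc, Epcam, Krt15, Krt5, Pnlip, Prss1 and Rnase1l2. Obese replicate 1 was at least 2-fold above all other arrays for 25 of the 65, and obese replicate 2 for 9. Among the 100 were Cela1, Cpa1, Glycam1 and Tcf7, and control replicates 1 and 2 were each at least 2-fold above all other arrays for 7 and 12 of them.

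Asking in addition that the groups not overlap removed some of them. Of 53 probe sets that were then higher in obese tissue (0.41% of those tested), 4 were among the 34 genes, Cpb1, Pnlip, Prss1 and Rnase1l2, and of 94 that were lower (0.727%), 1, Glycam1. For Cpb1, Pnlip and Prss1 the groups were apart because obese replicate 2 was slightly above the controls: without obese replicate 1 their log2 differences were 0.33, 0.39 and 0.22, against 1.65, 2.13 and 2.08 with both arrays. Without obese replicate 1, 1 of the 34 genes was among 87 higher probe sets and 9 among 221 lower ones. Without obese replicate 2, 12 were among 124 higher probe sets, and 1 among 114 lower ones. Most of the marker genes counted were on the higher side when obese replicate 1 was the array kept. They were mostly on the lower side when obese replicate 2 was kept. Over all tested probe sets the balance shifted in the same direction, from 124 higher and 114 lower to 87 higher and 221 lower. Marker genes made up 9.68%, 0.877%, 1.15% and 4.07% of these in turn, and were 23 of the 12929 tested. Whether they shifted more than other probe sets was not tested.

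By tissue, with dim values at the floor, the median log2 difference over the 14 pancreatic genes was 1.64. It was -0.04 over all tested probe sets and 0.00 over all probe sets. Without obese replicate 1 the pancreatic median was 0.00, because the untested genes were then at the floor on every array kept. Cela1 (-2.59), Cpa1 (-2.05) and Rnase1l2 (1.78) were still far from 0 without obese replicate 1. The epithelial median was 0.95, and -0.59 without that array, with Krt7, Krt8, Krt15, Krt18, Krt19 and Epcam turning from higher to lower. Mesothelial genes had a median of -0.35, which was -1.38 without obese replicate 1 and 0.46 without obese replicate 2. The lymph node median was -0.80, and -0.03 without control replicate 1, where Glycam1 (-0.96) and Lck (-0.25) kept the largest differences. Further lymph node genes likewise had a median of -0.39, and -0.03 without control replicate 1. Cd37 and Cd4 were among those in which control replicate 2 stayed apart from the obese arrays. Dissection and animal cannot be told apart for any of these arrays, since each is 1 sample, and the part of these tissues in the differences of other genes was not tested.

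**Figure D4:**
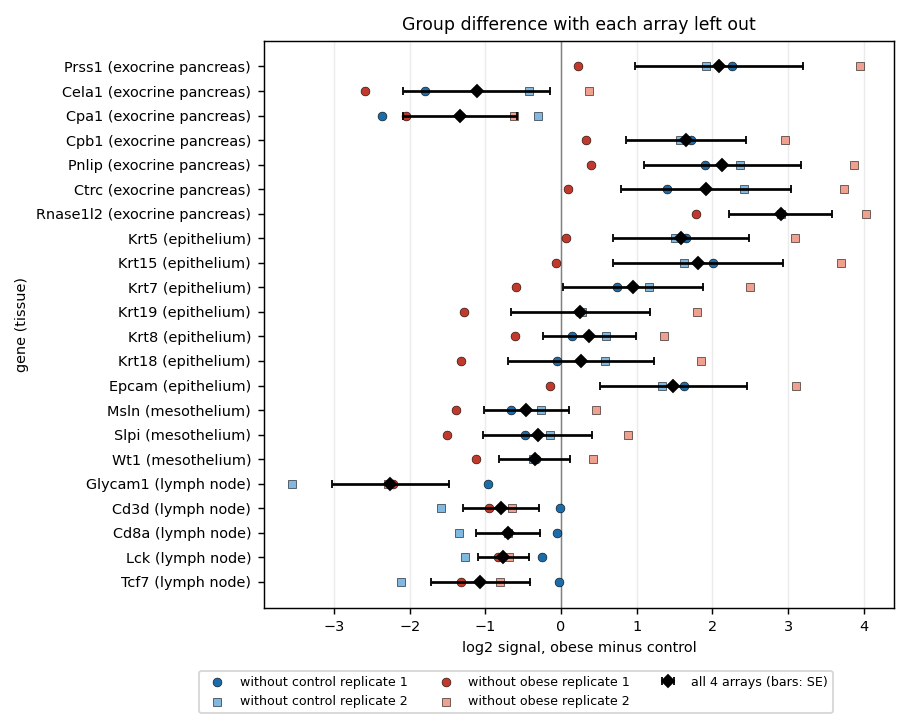
Log2 difference in signal, obese minus control, for the 22 tested genes of pancreas, epithelium, mesothelium and lymph node, with all 4 arrays (diamonds, bars are the limma SE) and with each array left out. Points without obese replicate 1 lie at 0.39 or below for pancreas and epithelium except Rnase1l2 at 1.78, and points without control replicate 1 lie near 0 for most lymph node genes, with Glycam1 at -0.96.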

How the data were processed

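RNA of 4 samples, 2 control and 2 obese by their titles, was measured on single-colour arrays. The values deposited are linear intensities, 1 for each probe set and array. That they were scaled was read from the values alone: means trimmed by 2% at each end were 150.026 to 150.03. Scanner and software are not given in the sources used, no detection calls were used, and the intensities entered as deposited. The number of arrays limits the precision.

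Of 15923 probe sets, 57 controls were left out; 12783 of the rest had 1 gene symbol, 312 several and 2771 none. Entrez identifiers matched 12748 symbols in the GRCr8 table and changed 0. Values were raised to the floor of 20.8, and log2 was taken. Groups were compared by limma 3.58.1 (R 4.3.3) over the probe sets above the floor on at least 2 arrays (trended eBayes, two-sided, Benjamini-Hochberg over all tested). An exact permutation test could not give a p below 0.333 and was not run. A gene's excess on 1 array is its floored signal over the highest of the other 3; against arrays at the floor it is a lower bound. The code was tested on simulated data.

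The 34 genes and the further lists (exocrine and endocrine pancreas, epithelium, mesothelium, lymph node, gut, epididymis, testis, adipocyte) were chosen with earlier results of these data known. All 34 are named; each further list gave the 2 genes with the highest mean and the 3 with the largest range, and each array its 10 genes with the largest excess among tested probe sets; Cd3g was named after its values were seen, as were the 4 promoters shown and the counts by fold alone. Alternatives were 3 scalings, 2 other floors, a pseudocount of 20, other filters and variance models, a replicate block, each array left out and, for Wt1, the mean of its 2 probe sets.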

Additional observations from a re-analysis of the deposited data

How the results depend on the processing

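With 2 arrays per group and no detection calls, dim genes have only bounds, and a fit without 1 array assumes that the lone array of its group varies like the other group. None of the 23 tested marker genes passed the adjusted threshold under any alternative that kept all 4 arrays. Their signs held in all 234 values from these settings. Other filters, other variance models and the replicate block leave the log2 difference itself unchanged, so those signs could not turn. Only the scalings, the other floors, the pseudocount and the Wt1 mean could turn a sign. With 1 array left out, the sign turned in 12 of 92 values, for 11 genes. Their ranges over the 4 omissions were -2.59 to 0.36 for Cela1, -0.14 to 3.11 for Epcam, -0.074 to 3.70 for Krt15, -0.59 to 2.49 for Krt7, -0.61 to 1.36 for Krt8, -1.32 to 1.85 for Krt18, -1.29 to 1.80 for Krt19, -1.38 to 0.46 for Msln, -1.51 to 0.88 for Slpi, -1.12 to 0.42 for Wt1 and -0.078 to 0.33 for Adam7.

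Over all probe sets, 0 passed in limma, and 3 with the pseudocount, 6 with no filter and 1 with no variance trend. The 53 separated and at least 2-fold higher probe sets were 119 with the floor at the 10th percentile, 20 at the 40th, 34 with the pseudocount and 35 with all 4 arrays above the floor, and 76 to 124 with an array left out. The 94 lower ones were 195, 51 and 61 in the first 3 of these settings and 114 to 221 with an array left out. Of the marker genes, the 4 higher were 8 at the lower floor, 1 at the higher floor and 2 with all 4 arrays above the floor, and 1 to 12 with an array left out; the 1 lower was 3 at the lower floor, and 1 to 9 with an array left out.

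Tested probe sets at least 2-fold above the other 3 arrays numbered 19 on control replicate 1, 23 on control replicate 2, 61 on obese replicate 1 and 29 on obese replicate 2. At the lower floor they numbered 53, 46, 109 and 52 in that order, and at the higher floor 8, 12, 21 and 19. With the pseudocount, control replicate 1 had 8, control replicate 2 had 9 and obese replicate 2 had 17. Obese replicate 2 had 45 with median centring, obese replicate 1 had 97 with no filter, and with all 4 arrays above the floor control replicate 1 had 12 and obese replicate 1 had 38. Counted over all 34 marker genes, tested or not, the 7 on control replicate 1 were 3 at the higher floor. With all 4 arrays above the floor, the 7 were 4 and the 18 on obese replicate 1 were 6. That setting drops the marker genes that fail its filter and leaves the excess of the others unchanged.

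Samples share only a number in their titles: the differences between replicates 1 and 2 of the 2 groups correlated with r = 0.05 across probe sets. With the replicate block, 0 probe sets and 0 marker genes passed.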
